A study of Rattus norvegicus with 6 samples.

Results

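The collagen chains were the rows of a gene expression table of rat marrow stromal cells whose biotype was protein coding and whose symbol had the form of Col, a type number, the letter a and a chain number. There were 43 such rows among 33589. The series compared 3 libraries from soft SA hydrogel of 2 kPa with 3 libraries from stiff SA hydrogel of 18 kPa. Both groups held rat (Rattus norvegicus) cells from bone marrow labelled as MSCs, mesenchymal stem cells, the marrow stroma's precursors of bone, cartilage and fat cells. Both groups spent 48 h in the gel, in a low glucose medium with serum and antibiotics, before polyA RNA was taken from cells removed from the gel. The labels used here name no strain, age or number of animals and do not say whether replicates were separate cultures, so the spread behind each p-value may be technical.

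Collagens are secreted or membrane proteins whose chains wind around each other into a stiff helix built on repeats of glycine. Fibrillar types (I, II, III, V, XI, XXIV and XXVII) pack side by side into the cables that carry tension in bone, tendon and skin. Network types form sheets, type IV in basement membranes and types VIII and X as hexagonal lattices. FACIT types sit on the surface of fibrils, type VI forms beaded filaments around cells, type VII anchors epithelium, multiplexins (XV and XVIII) lie in basement membrane zones, and a last group spans the cell membrane. Marrow stromal cells are known as abundant producers of types I, III, V and VI, and bone is mostly mineralized type I collagen.

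Values are FPKM, read fragments scaled both to gene length (per kilobase) and to library depth, so levels of different chains can be set side by side. Reads recovered from them came to between 14966354 and 16711527 per library. On the first principal component soft replicate 1 was the outermost library, at -20.9 against -8.22 and -7.98 for the other soft libraries and 10.3 to 14.2 for the stiff ones. Stromal markers fitted the label (7 of 8 over the level filter; Lepr below it), with summed FPKM of 2559 to 2724 in soft and 3102 to 3200 in stiff gel. Of the 7, Vim was called higher in stiff gel (1572 ± 78.2 to 2012 ± 51.5 FPKM, limma adjusted p = 0.0246), and the other 6 were not called. Endothelial markers (4 of 5 matched) summed to 0.410 FPKM or less and neural markers to 1.27 or less. Pecam1, listed as endothelial, and Itgam, listed as leukocyte, had no protein coding row under their symbols, so their levels are unknown. The cells were not free of leukocyte RNA: 9 markers summed to 281.3 to 282.9 FPKM in soft and 265.1 to 277.5 in stiff gel, with Cd68 (40.4 ± 3.47 to 27.7 ± 1.52 FPKM, SD, n = 3 per group) and Cd53 lower and Adgre1 higher in stiff gel by the test below. Of 4 smooth muscle markers 3 were higher in stiff gel, among them Acta2 (1.38 on the log2 scale, limma adjusted p = 0.00111). The part of either marker list in the collagen values was not tested, and in bulk RNA fewer cells of a type and less RNA per cell cannot be told apart.

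Fibrillar chains made up most of the collagen RNA in every library. Of 24 chains tested, 3 were called different between gels, and a chain that was not called may still differ. A minor fibrillar chain, Col11a1, and a network chain, Col8a1, rose in stiff gel, and the multiplexin chain Col15a1 fell. The large fibrillar chains Col1a1 and Col3a1 did not pass the test. Of the 43 chains, 24 averaged 1 FPKM or more across all 6 libraries and were tested within the 12713 rows at that level. Limma's test on log2(FPKM + 1), with adjusted p under 0.05 over all those rows, called 2 of the 24 higher in stiff gel (8.33%, against 1.01% of all rows tested) and 1 lower (4.17%, against 0.425%), 3 in all (12.5%, against 1.43%). With a minimum of 5 FPKM, 2 of 21 chains were higher and 1 lower, where 1.75% and 0.709% of the 8882 rows at that level were. The share of all rows called thus depended on the level filter. For the 24 chains, voom on recovered reads called 2 higher (1.49% of all rows) and 3 lower (1.01%). Array weights gave 4 higher (3.38%) and 3 lower (2.01%), and a threshold of 0.1 gave 2 higher (1.9%) and 3 lower (1.1%). Without soft replicate 1, 2 were higher (0.912%) and 0 lower (0.338%). Without soft replicate 2 there were 2 higher and 0 lower, and without soft replicate 3 or any 1 of the stiff libraries 1 higher and 0 lower, where 0.149% to 0.338% of all rows were higher and 0.0551% to 0.102% lower. The median log2 fold change of the 24 chains was -0.08, with 10 above and 14 below 0, while over all rows tested it was 0.0013.

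**Figure D1:**
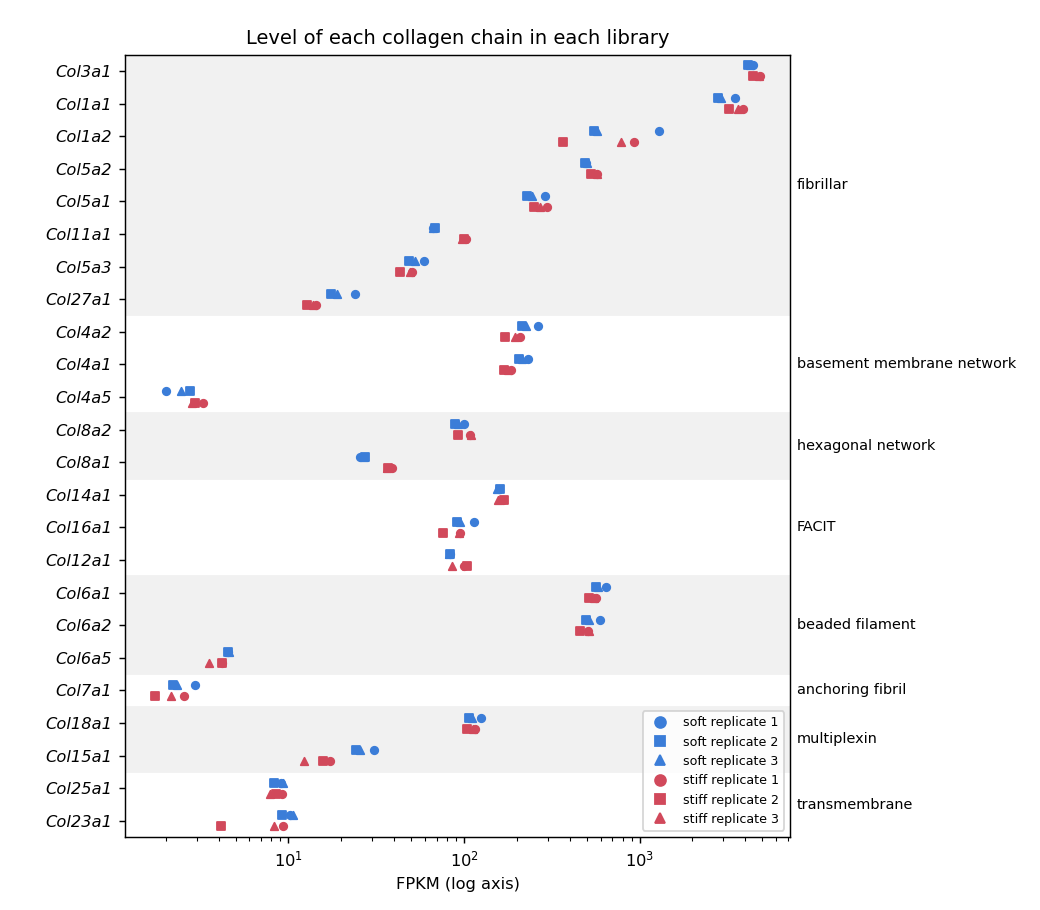
FPKM on a log axis of the 24 collagen chains over the level filter, grouped by structural class; each point is 1 library (soft blue, stiff red, replicates by marker shape). Col3a1 and Col1a1 lie at 2786 FPKM or more in all 6 libraries, and Col1a2 spreads from 367.7 to 1285 FPKM.

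The levels spanned a wide range. Col3a1, which forms fibrils together with type I in distensible tissues, was the most abundant chain, with 4273 ± 143 FPKM in soft gel and 4684 ± 226 FPKM in stiff gel. Col1a1 came next and Col1a2 followed. At means of at least 100 FPKM stood 11 chains, among them Col6a1 and Col6a2 of type VI, Col5a2 and Col5a1 of type V, Col4a2 and Col4a1 of type IV, Col14a1 and Col18a1. Col6a1 lay above Col6a2, and Col4a2 above Col4a1, in all 6 libraries. Col5a2 stood between the type VI chains by its mean over all libraries, but its mean was below that of Col6a2 in soft gel (495.1 ± 5.40 against 534.3 ± 50.9 FPKM) and above it in stiff gel (557.4 ± 25.2 against 495.9 ± 32.6). In soft gel Col5a1 (253.7 ± 32.6 FPKM) and Col4a2 (234.2 ± 26.5) differed by less than the SD of either. The lowest chain over the filter was Col7a1 (anchoring fibrils), at 2.50 ± 0.401 and 2.15 ± 0.403 FPKM.

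The other 19 chains were under the filter, and the highest of them, the FACIT chain Col20a1, averaged 0.821 FPKM. Col9a2, Col24a1, Col17a1, Col11a2, Col26a1 and Col22a1 also had means of at least 0.2 FPKM. A further 10 were below that, with at most 14 reads in any library: Col10a1, the marker of hypertrophic cartilage, Col2a1, the main cartilage fibril chain, Col4a3, Col4a4, Col4a6, Col6a4, Col6a6, Col9a3, Col13a1 and Col19a1. Col2a1 had 7 reads over all 6 libraries together. Col9a1 and Col28a1 had no read in any library, which allows levels of up to 0.0587 FPKM (3 reads per library, counting error only). Of the 3 chains of type IX, the FACIT of cartilage, none reached 1 FPKM.

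Among fibrillar chains, 8 of 11 were tested, 1 rose and none fell, with 5 values above 0 and a median log2 fold change of 0.12. Col11a1, a chain best known from cartilage that joins type V chains in thin fibrils and helps set fibril diameter, was at 66.5, 68.4 and 66.9 FPKM in soft replicates 1 to 3. It was at 102.7, 99.4 and 97.6 FPKM in stiff replicates 1 to 3. All stiff libraries lay above all soft ones, and libraries of a group differed by a few FPKM. The ratio of means was 1.48 (log2 fold change 0.56, 95% interval 0.45 to 0.67, adjusted p = 0.00377). Col11a1 passed in each of the 6 fits that left out 1 library and in every other setting tried, with log2 fold changes from 0.51 to 0.63. Its row lies on chromosome 2 from 216863428 to 217056523, plus strand, by the deposited table, which names no genome build. Cartilage markers gave a mixed picture beside it: Acan rose from 2.96, 3.05 and 2.98 FPKM in soft to 5.07, 4.70 and 4.86 FPKM in stiff gel (limma adjusted p = 0.0243), Sox9 did not pass (7.25 ± 0.899 and 6.15 ± 0.169 FPKM), Comp stayed under the filter, and Col2a1 was near 0 as given above. The part of cartilage-like cells in the Col11a1 value was not tested.

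The promoters of Col11a1 and of Col15a1, the chain that fell, are shown because these chains differed in opposite directions. Each is the 250 bases before the start annotated by RefSeq on build GRCr8, read 5′ to 3′ on the gene's strand, chr2:204508886-204509135 for Col11a1 and chr5:66297296-66297545 for Col15a1, both on the plus strand. Capitals mark matches on either strand to any of 6 motifs. These were the GC box spelled GGGCGG, the CCAAT box, the TATA box spelled TATAAA, the motif of TEAD factors spelled GGAATG, that of AP-1 spelled TGANTCA, and the CArG box of serum response factor. No marked match overlaps a match to another motif.
Col11a1: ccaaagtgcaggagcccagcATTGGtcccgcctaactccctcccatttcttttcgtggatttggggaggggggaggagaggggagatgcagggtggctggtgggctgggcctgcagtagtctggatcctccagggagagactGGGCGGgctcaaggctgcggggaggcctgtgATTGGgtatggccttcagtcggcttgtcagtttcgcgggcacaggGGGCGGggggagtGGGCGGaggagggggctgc
Col15a1: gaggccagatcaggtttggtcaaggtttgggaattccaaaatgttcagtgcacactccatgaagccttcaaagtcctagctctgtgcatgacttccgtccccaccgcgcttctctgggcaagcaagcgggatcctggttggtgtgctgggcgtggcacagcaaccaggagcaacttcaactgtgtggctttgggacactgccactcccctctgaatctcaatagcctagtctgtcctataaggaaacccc
The Col11a1 window held 3 GC boxes and 2 CCAAT boxes, and the Col15a1 window held no match to any of the 6. Over all 33465 windows of that length, 30.5% held a GC box, 34.0% a CCAAT box, 12.9% a TATA box, 12.1% a TEAD motif, 6.34% an AP-1 motif and 1.5% a CArG box. The Col8a1 window, which begins inside the annotated gene and is not printed, held 4 GC boxes and no match to the other 5 motifs. A match describes letters only. Windows were matched by symbol alone. A second row described as type XV, given below, was not called, and whether the Col15a1 start belongs to the row that fell was not tested. Of the 24 tested chains 18 had a window in the table; Col3a1, Col1a1, Col6a2, Col14a1, Col12a1 and Col25a1 had none.

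Col1a1, the chain present in most copies in type I collagen, was at 3485, 2786 and 2914 FPKM in soft and 3866, 3243 and 3628 FPKM in stiff gel. The groups overlapped (log2 fold change 0.23, 95% interval -0.0046 to 0.46, adjusted p = 0.334). With array weights, which weight each library by its spread over all rows, Col1a1 passed (0.32, adjusted p = 0.0437). For Col3a1 the stiff libraries (4858, 4429 and 4766 FPKM) all lay above the soft ones (4422, 4138 and 4257). The closest were stiff replicate 2 and soft replicate 1. Its log2 fold change was 0.13 (interval 0.0056 to 0.26, adjusted p = 0.307). With FPKM sums made equal it was 0.08 (adjusted p = 0.479). Col5a2, which with Col5a1 starts type I fibrils and limits their width, was at 490.5 to 501.1 FPKM in soft and 528.3 to 571.9 FPKM in stiff gel (0.17, adjusted p = 0.172; 0.0446 with array weights). Col5a1 overlapped between groups at 253.7 ± 32.6 and 272.3 ± 23.5 FPKM (0.11, adjusted p = 0.668). The third type V chain, Col5a3, was at 53.6 ± 5.13 and 47.6 ± 3.96 FPKM (-0.17, adjusted p = 0.424).

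Col27a1, a fibrillar chain known from cartilage and developing skeleton, was at 23.9, 17.6 and 18.8 FPKM in soft and 14.4, 12.8 and 13.8 FPKM in stiff gel. Every stiff library lay below every soft one, yet the value did not pass over all rows (log2 fold change -0.51, interval -0.78 to -0.25, adjusted p = 0.0900). It passed with voom (adjusted p = 0.0266) and with array weights (0.0268). The fibrillar class thus held both the largest value above 0 (Col11a1) and a value of similar size below 0 (Col27a1) among the 24 chains.

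Col1a2, the partner of Col1a1 in type I collagen, varied most between libraries of a group among the 24 chains. It was at 1285, 548.4 and 574.4 FPKM in soft and at 929.1, 367.7 and 784.7 FPKM in stiff gel, on 26594 to 96537 reads. Its log2 spread within groups was 0.701 (SD), followed by 0.389 for Col23a1, and among 702 rows of at least 100 FPKM only 0.570% had a larger one. The difference between gels was within that spread (log2 fold change -0.20, interval -1.19 to 0.80, adjusted p = 0.875). Its sign turned to 0.20 without soft replicate 1, to 0.21 without stiff replicate 2 and to 0.27 with array weights. The table holds another row described as collagen type I alpha 2, NEWGENE_621351, at 0.441 to 0.740 FPKM, and since the handling of reads that map to several places is not given, the level of Col1a2 is uncertain.

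**Figure D2:**
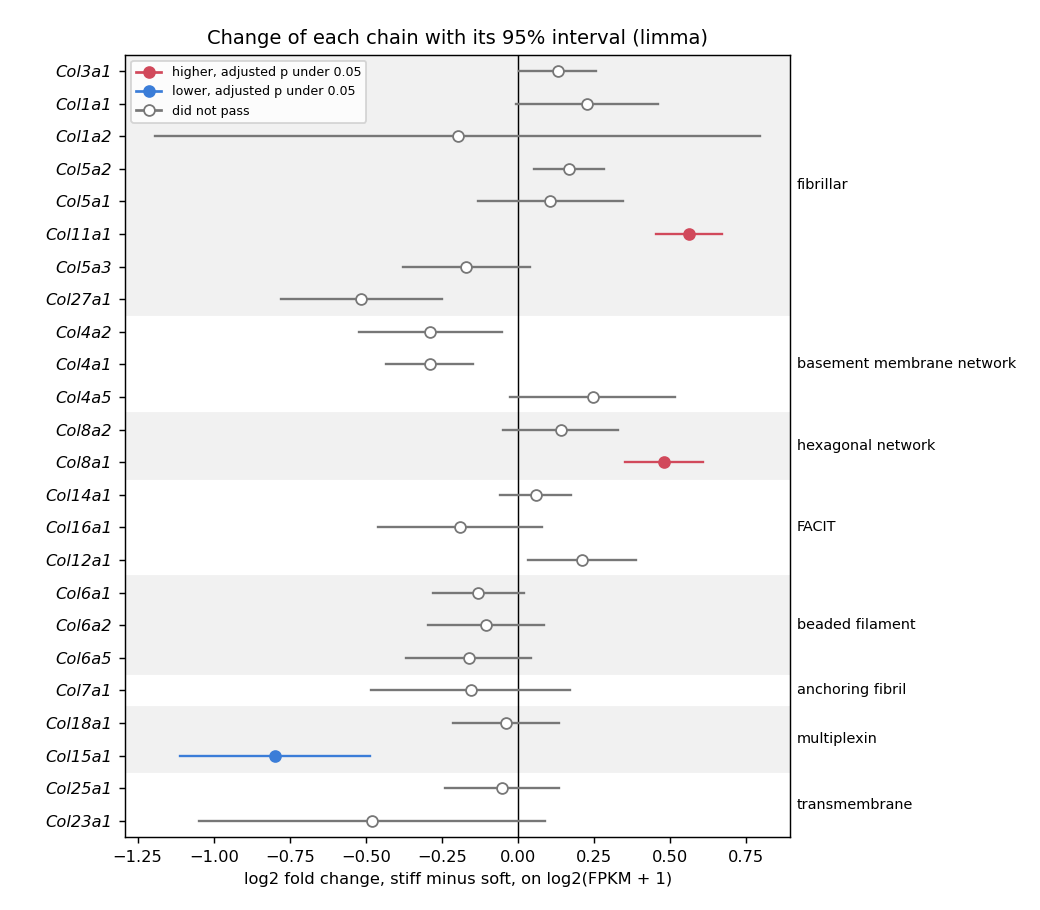
Log2 fold change of stiff against soft on log2(FPKM + 1) with its 95% interval from limma, for the 24 chains over the level filter by structural class; filled points passed an adjusted p of 0.05. Col11a1 and Col8a1 lie to the right and Col15a1 to the left, and the interval of Col1a2 runs from -1.19 to 0.80.

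Type IV collagen, the sheet of basement membranes, had 3 of 6 chains over the filter, and none passed the test. Col4a1 was at 230.2, 205.8 and 213.9 FPKM in soft and 184.7, 168.1 and 178.1 FPKM in stiff gel, with no overlap (log2 fold change -0.29, interval -0.43 to -0.15, adjusted p = 0.0794). Col4a2, which joins it in the common form of the protein, was at 264.1, 213.6 and 224.8 FPKM in soft and 209.3, 171.1 and 194.4 FPKM in stiff gel (-0.29, interval -0.52 to -0.05, adjusted p = 0.239). The values of both chains thus lay lower in every stiff library. The call for Col4a1 depended on the method: it passed with voom on recovered reads (adjusted p = 0.0206), after quantile normalization (0.0345) and with array weights (0.0263). Col4a5, a chain of kidney and other specialised membranes, had 2.40 ± 0.366 and 3.02 ± 0.235 FPKM (0.25, adjusted p = 0.369), opposite in sign to the other 2.

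Col4a1 and Col4a2 are transcribed away from each other, and the bases between their starts are shown because the chains had like values in each gel. On build GRCr8 the starts that RefSeq annotates are separated by 76 bases, chr16:84885521-84885596, given here on the plus strand, toward Col4a1, with the match to the same 6 motifs in capitals.
Col4a1-Col4a2: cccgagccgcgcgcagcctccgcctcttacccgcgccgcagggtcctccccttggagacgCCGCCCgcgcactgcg
The stretch held 1 GC box, as did 18.1% of all windows cut to their last 76 bases, and no match to the other 5 motifs. Its content of G and C was 78.9%. In the deposited table's own coordinates the gap between the gene models was 83601 bases, so that table does not show the shared start region. The ratio of Col4a1 to Col4a2 was 0.872, 0.963 and 0.952 in soft and 0.882, 0.982 and 0.916 in stiff libraries, which overlapped throughout (log2 difference -0.0034, exact two-sided permutation p = 1.0).

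The hexagonal network types had 2 of 3 chains over the filter, of which 1 rose. Col8a1, a short chain network collagen of vessel walls and of the membrane behind the cornea, was at 25.7, 27.1 and 26.9 FPKM in soft and 38.9, 36.9 and 36.6 FPKM in stiff gel. The groups were well apart, and the ratio of means was 1.41 (log2 fold change 0.48, interval 0.35 to 0.61, adjusted p = 0.0114). Col8a1 passed without soft replicate 1 (adjusted p = 0.0212) or 2 (0.0487). It missed the threshold without soft replicate 3 (0.0679) or without stiff replicate 1 (0.0685), 2 (0.0535) or 3 (0.0618), at log2 fold changes of 0.45 to 0.50. Its partner Col8a2 was at 100.1, 89.1 and 92.7 FPKM in soft and 108.7, 92.8 and 110.2 FPKM in stiff gel (0.14, interval -0.05 to 0.33, adjusted p = 0.464). The row of Col8a1 lies on chromosome 11 from 44877859 to 45007891, plus strand, in the table's coordinates.

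Multiplexins had both chains over the filter, 1 of which fell. Col15a1, which lies where basement membranes meet fibrils, was at 30.7, 24.3 and 25.7 FPKM in soft and 17.2, 15.7 and 12.3 FPKM in stiff gel. Every stiff library was lower than every soft one, and the soft mean was 1.78 times the stiff mean (log2 fold change -0.80, interval -1.11 to -0.49, adjusted p = 0.0406). The call was lost in each of the 6 fits that left out 1 library (adjusted p from 0.0757, without soft replicate 1, to 0.132, without soft replicate 3), though the log2 fold change stayed between -0.90 and -0.67. It was also lost without the level filter (adjusted p = 0.106) and without the variance trend (0.0696). Col18a1, the source of the endostatin fragment, was at 113.8 ± 9.46 and 110.6 ± 6.33 FPKM (-0.04, interval -0.21 to 0.13, adjusted p = 0.854).

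A row described as like the alpha 1 chain of type XV, LOC108348074, lies on the same chromosome 5 from 64476317 to 64542645, while Col15a1 lies from 62840360 to 62950240, both on the plus strand. It was at 19.9, 16.0 and 16.5 FPKM in soft and 18.7, 16.2 and 24.8 FPKM in stiff gel (0.16 on the log2 scale, adjusted p = 0.661), so the fall was seen in only 1 of the 2 rows. The level of Col15a1 is uncertain to the extent that the rows share reads. Reads of both rows together came to 239.1, 191.8 and 200.6 CPM (reads scaled to library size) in soft and 162.4, 145.5 and 162.0 in stiff libraries. These did not overlap, and the log2 difference of the sum was -0.42 (exact two-sided permutation p = 0.1, the smallest that 3 against 3 can give).

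**Figure D3:**
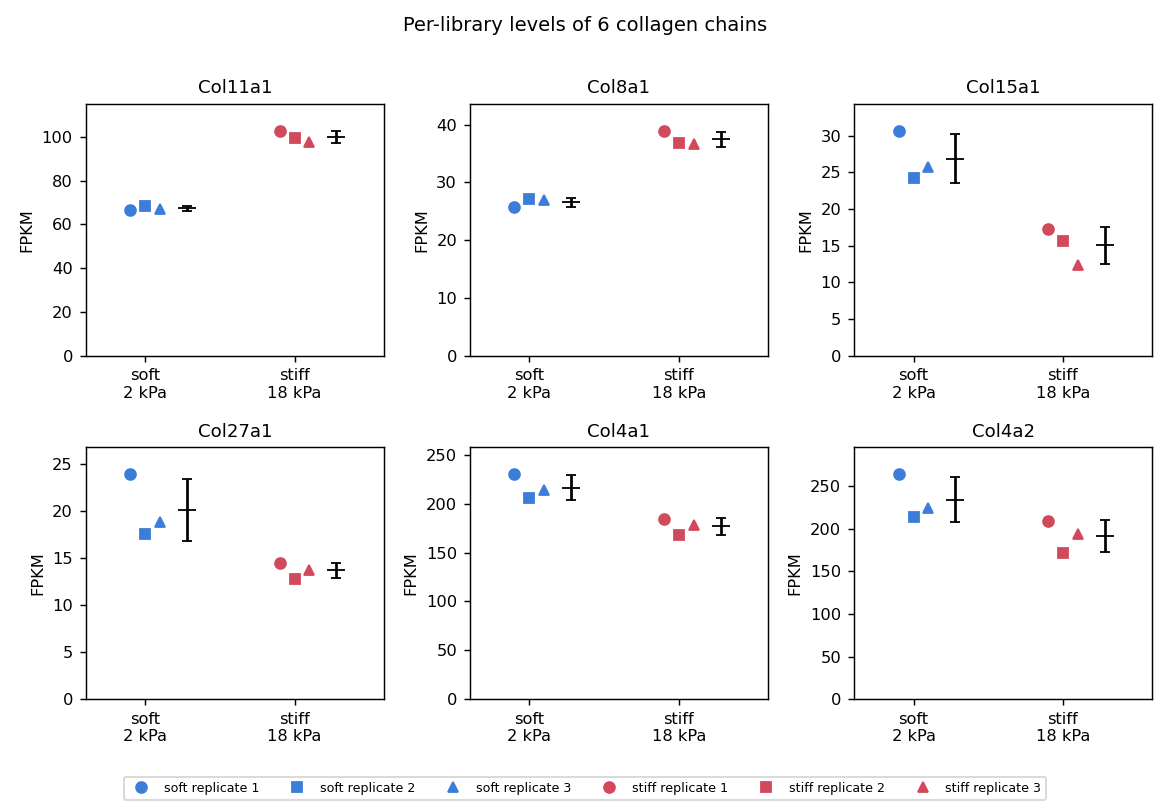
FPKM of Col11a1, Col8a1, Col15a1, Col27a1, Col4a1 and Col4a2 in each library, with the group mean and SD in black beside the points (n = 3). For all 6 chains the soft and stiff libraries do not overlap; adjusted p was under 0.05 for Col11a1, Col8a1 and Col15a1.

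FACIT chains, which decorate fibrils, had 3 of 9 members over the filter and no call. Col14a1, found on type I fibrils of soft tissues, was at 157.4 ± 2.69 and 164.1 ± 6.85 FPKM (0.06, interval -0.06 to 0.18, adjusted p = 0.623). Col12a1, its close relative in tendon and ligament, was at 83.0, 83.2 and 82.5 FPKM in soft and 99.6, 104.2 and 85.7 FPKM in stiff gel. The soft libraries were nearly equal and all lay below the stiff ones, whose own spread was wider (0.21, adjusted p = 0.250). After removal of a trend with gene length its adjusted p was 0.0418. Col16a1 was at 100.5 ± 12.5 and 87.9 ± 10.7 FPKM (-0.19, adjusted p = 0.478).

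Type VI chains form the beaded filaments that link cells to the surrounding fibrils, and 3 of the 5 matched were over the filter, all with values below 0 and none called. Col6a1 was at 596.7 ± 41.5 and 545.0 ± 24.4 FPKM (-0.13, adjusted p = 0.393), and Col6a2 at 534.3 ± 50.9 and 495.9 ± 32.6 FPKM (-0.11, adjusted p = 0.587). Col6a5 was at 4.55 ± 0.0463 and 3.97 ± 0.371 FPKM (-0.16, adjusted p = 0.435). The large alpha 3 chain had no row that met the rule: the row that the table describes as collagen type VI alpha 3, AABR07068316.1, carries another biotype. It was at 119.4, 109.7 and 111.1 FPKM in soft and 96.1, 94.6 and 84.9 FPKM in stiff gel, with no overlap (-0.30, adjusted p = 0.0861). Among transmembrane chains Col25a1 (8.89 ± 0.511 and 8.54 ± 0.671 FPKM) and Col23a1 (10.0 ± 0.702 and 7.24 ± 2.74) were over the filter without a call. Stiff replicate 2, at 4.14 FPKM, set the low mean of Col23a1, and another row described as the type XXIII chain, LOC103693323, was at 3.30 ± 0.797 and 2.60 ± 0.521 FPKM.

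Over the 24 chains, stiff libraries lay wholly above soft ones for 6 (25.0%, against 11.7% of all rows tested) and wholly below for 5 (20.8%, against 10.9%). The first group held Col3a1, Col5a2, Col11a1, Col8a1, Col12a1 and Col4a5, and the other Col27a1, Col4a1, Col4a2, Col15a1 and Col6a5. These counts were made on FPKM as deposited, whose sum over all rows was larger in every stiff library. That sum was 452787 to 457306 in soft and 467372 to 478304 in stiff libraries. Overlap was not counted again with sums made equal. An unadjusted p under 0.05 was reached by 9 of 24 (37.5%, against 15.4%). Collagen levels also moved together from library to library within a group. Soft replicate 2 was the lowest soft library for 19 of 24 chains (79.2%, against 33.7% of all rows). Soft replicate 1 was the highest for 15 (62.5%, against 41.1%). Stiff replicate 1 was the highest stiff library for 20 of 24 (83.3%, against 29.8%). Stiff replicate 2 was the lowest for 16 (66.7%, against 36.0%).

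Summed over the 43 chains, collagen FPKM came to 12526, 10417 and 10788 in soft and 12835, 10910 and 12261 in stiff libraries, 2.28% to 2.77% of all FPKM. The sums overlapped. The shares of this sum held by structural classes are described by library and were not tested. Fibrillar chains held 80.9%, 79.9% and 80.0% of it in soft and 83.3%, 82.2% and 83.1% in stiff libraries. Type IV chains held 3.96%, 4.05% and 4.09% in soft and 3.10%, 3.14% and 3.06% in stiff libraries. Type VI chains held 9.90% to 10.2% and 8.42% to 8.99%, and multiplexins 1.24% to 1.26% and 1.02% to 1.09%. The hexagonal network chains held 1.01% to 1.12% in soft and 1.15% to 1.20% in stiff libraries. None of these 5 shares overlapped between gels, and library scaling cancels in a share. However, a higher share of one class lowers the others by construction, so they are not separate results. In soft gel Col3a1 and Col1a1, neither of them called, averaged 4273 and 3061 of the 9028 FPKM of the fibrillar class. For stiff gel these means were 4684 and 3579 of 9949 FPKM. The called chain Col11a1 averaged 67.3 (soft) and 99.9 (stiff) FPKM, so the fibrillar share says little about it. The shares of FACIT chains overlapped (2.86% to 3.23% and 2.75% to 3.21%). Without Col1a2 the fibrillar share was 78.7% to 78.9% in soft and 81.6% to 82.0% in stiff gel, and the type IV share 4.28% to 4.42% and 3.25% to 3.34%. With the alpha 3 row of type VI added, the fibrillar share was 79.1% to 80.1% and 81.5% to 82.7%.

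**Figure D4:**
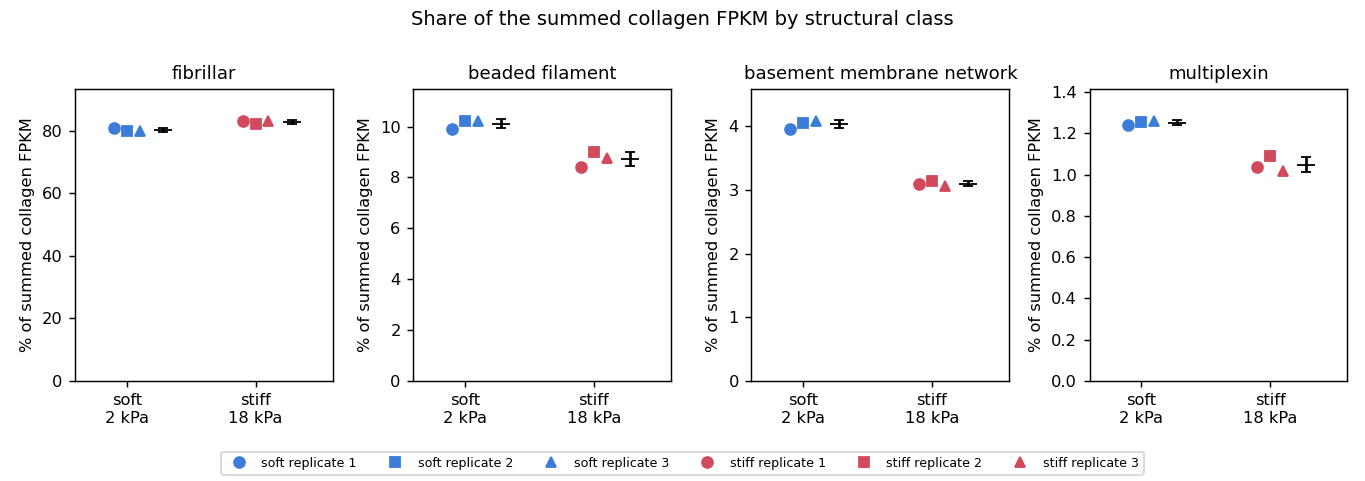
Percent of the summed FPKM of all 43 collagen chains held by 4 structural classes, by library, with the group mean and SD in black (n = 3); axes start at 0. The fibrillar share is higher in the 3 stiff libraries (82.2% to 83.3%) than in the 3 soft ones (79.9% to 80.9%), and the other 3 shares are lower.

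Ratios of chains that are known to join in one molecule describe how partner levels stood to each other, and library scaling cancels in them too. Over 7 ratios, exact two-sided permutation tests of 3 against 3 libraries cannot go below 0.1, which 3 ratios reached (adjusted p = 0.233 over the 7). Col11a1 to Col5a1 was 0.229, 0.300 and 0.276 in soft and 0.346, 0.398 and 0.360 in stiff libraries, a log2 difference of 0.46. Col8a1 to Col8a2 was 0.256, 0.305 and 0.290 in soft and 0.358, 0.398 and 0.332 in stiff libraries, a log2 difference of 0.35. The type VI alpha 3 row to Col6a1 was 0.186 to 0.194 in soft and 0.154 to 0.183 in stiff libraries (-0.18). In each of these the libraries of the gels did not overlap, for the third only narrowly (0.183 against 0.186). The ratio was higher in stiff gel for the first 2 and lower for the third. The first 2 use the same values as the calls of Col11a1 and Col8a1, so they are not separate results. A large p below does not show that partners kept step. Col6a1 to Col6a2 stayed between 1.07 and 1.14 in all 6 libraries (exact permutation p = 0.6), and Col5a1 to Col5a2 between 0.465 and 0.588 (exact permutation p = 0.7). Col1a1 to Col1a2 ran from 2.71 in soft replicate 1 to 8.82 in stiff replicate 2, and the groups overlapped (exact permutation p = 0.6).

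**Figure D5:**
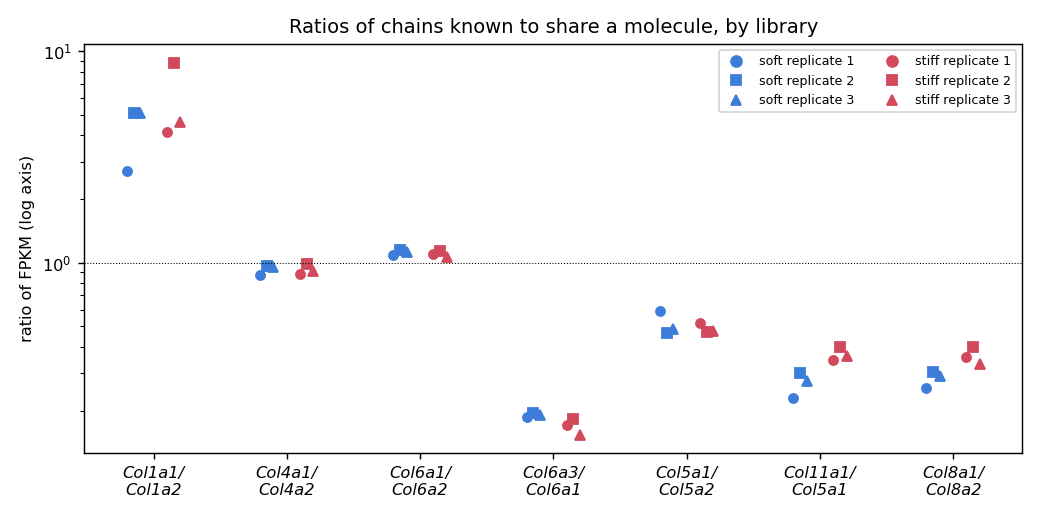
Ratio of FPKM of 2 chains on a log axis for 7 chain pairs, by library; the dotted line marks equal FPKM, and the Col6a3 value is the row described as collagen type VI alpha 3. The ratios of Col11a1 to Col5a1 and of Col8a1 to Col8a2 are higher in all 3 stiff libraries, while that of Col1a1 to Col1a2 spreads from 2.71 to 8.82.

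Collagen genes that lie side by side are described by their levels and their values between gels. Col3a1 and Col5a2, 33294 bases apart on chromosome 9 and on opposite strands, both had every stiff library above every soft one in deposited FPKM. Their mean levels were far apart, at 4478 and 526.3 FPKM, and neither was called. Col6a1 and Col6a2, 97866 bases apart on chromosome 20 on the same strand, had like levels and log2 fold changes of -0.13 and -0.11. On chromosome 8 only Col6a5 of the run Col6a6, Col6a5 and Col6a4 was over the filter, at 4.26 FPKM against 0.037 or less for the others. Col4a3 and Col4a4, 374 bases apart on chromosome 9 on opposite strands, and Col9a1 and Col19a1 on the same chromosome each had a mean over the 6 libraries below 0.05 FPKM. Neighbouring genes were not tested as pairs.

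Before and after secretion, collagen chains pass through enzymes, chaperones, proteases and receptors, of which 57 were listed, 54 matched and 46 were over the filter. Of these 2 rose and 1 fell, 4.35% and 2.17% against 1.01% and 0.425% of all rows tested, with a median log2 fold change of 0.09 against 0.0013. P4ha3, a subunit of the prolyl hydroxylase that stabilises the helix, rose from 49.6 ± 1.74 to 65.2 ± 4.72 FPKM (0.39, adjusted p = 0.0443). It was the only one called of 17 hydroxylation and folding genes, whose median log2 fold change was 0.16. All tested genes of that step except Plod1 and P3h3 had values above 0, and Plod2 just missed the threshold (0.34, adjusted p = 0.0530). Itga11, a receptor subunit for fibrillar collagen, rose from 115.9 ± 4.35 to 144.8 ± 3.53 FPKM (0.32, adjusted p = 0.0326). It was the only one called of 6 receptor genes, whose median was -0.06. Mmp14, a membrane-bound collagenase, fell from 1125 ± 67.0 to 862.3 ± 6.57 FPKM (-0.38, adjusted p = 0.0236). It was the only one called of 5 collagen-degrading protease genes. Mmp2 (-0.21) and Mmp9 (-0.17) also had every stiff library below every soft one, while Mmp13 and Ctsk overlapped. Cross-linking enzymes (5 tested, median log2 fold change 0.27), propeptide removal (6, -0.03), secretion (2, 0.11) and fibril-binding proteins (5, 0.05) gave no call. Loxl3 (0.38, adjusted p = 0.0599), Loxl2 (0.27, 0.0912), Tll1 (0.32, 0.0530) and Fmod (0.38, 0.0522) had every stiff library above every soft one. Loxl1 and Loxl4 had values below 0, and Adamts3, Bmp1 and Fn1 had every stiff library below every soft one. The lysyl oxidase gene Lox, the most abundant of its step, was at 477.9 ± 41.1 and 608.6 ± 40.4 FPKM (0.35, adjusted p = 0.0930).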

How the data were processed

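PolyA RNA of 3 soft and 3 stiff libraries was analysed from the deposited FPKM table of 33589 rows; the design text speaks of quadruplicates. Per the labels' protocols, QIAGEN's QIAseq FX kit for single cells made the libraries. For the authors' FPKM, tools listed in the submitters' processing notes are Bowtie 0.12.9, Cufflinks 2.1.1 and HTSeq, and the builds are mm10 and GRCm38 of mouse, although the table carries rat identifiers and no build. Whether counting used strand or shared multiple mapping reads is not stated there. Gene length times FPKM gave whole multiples of a step in 100% of values (within 0.0001), so reads were recovered for depth, voom and floors of 3 reads. For a gene of 1 kb, 3 reads are 0.179 to 0.201 FPKM. Libraries of a group differed beyond sampling noise (chi-square per degree of freedom 3.57 or more).

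Rows with a mean of at least 1 FPKM were fitted in limma 3.58.1 (R 4.3.3) on log2(FPKM + 1), which understates changes of low genes, with group as the only term, a variance trend, two-sided tests and Benjamini-Hochberg adjustment over 12713 rows. Simulated data of that size with 100 rows changed by 1 and 100 by -0.5 (log2) gave 89 and 23 found, and 7 of 119 calls false. Every simulated row had the same dispersion and was drawn independently, unlike the real libraries, so these rates need not hold for them. Classes, ratios and lists followed textbook knowledge; the members and lists were chosen with earlier results of these data known. Named were the called chains, those of at least 100 FPKM, the most abundant of each class and near neighbours; the other tested chains were added for completeness. In the processing list the called genes were named. Its other named genes, Acan, Sox9 and the marker genes were named after their values were seen. Promoter sequences are RefSeq's on GRCr8, matched by symbol. Alternatives changed the pseudocount, filter, scaling, variance model, weights, threshold and rows tested, added the replicate block and left out each library; those without Col1a2, with the type VI alpha 3 row, with both type XV rows and for ratios were chosen after seeing the data.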

Additional observations from a re-analysis of the deposited data

How the results depend on the processing

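The count of 2 chains higher in stiff gel was 2 in most settings, 3 after removal of a length trend (1.16% of all rows) and 4 with array weights (3.38%). The count of 1 lower was 0 without the level filter (0.102% of 20495 rows) and without the variance trend (0.212%), 2 after quantile normalization (0.535%), and 3 with voom (1.01%), array weights (2.01%) or a threshold of 0.1 (1.1%). Leaving out 1 library gave 1 to 2 higher and 0 lower each time (0.149% to 0.912% and 0.0551% to 0.338% of all rows). With the replicate block the counts were 2 and 1 (0.614% and 0.212% of all rows); same-numbered libraries had deviations correlated at 0.0552, 0.116 and -0.0785, so the numbers were not taken to pair them. The median log2 fold change of the chains was -0.13 with FPKM sums made equal and -0.12 with quantile normalization, with 10 chains above 0 in both. Of 24 chains 22 kept their sign in every setting. Col1a2 and Col18a1 turned to 0.27 and 0.019 with array weights; without 1 library Col1a2 ran from -0.46 to 0.21 and Col18a1 from -0.0857 to 0.0259. The log2 ratio difference of Col4a1 to Col4a2 ran from -0.0485 to 0.0313 and that of Col5a1 to Col5a2 from -0.129 to 0.0398. The causes were not tested. Reads of tested chains were 80 or more per library, and the part of counting error in their spread was not tested.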
